A study of Mus musculus with 12 samples.

Results

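Immediate early genes are switched on within minutes of a signal, from transcription factors already present in the cell. The 10 genes described here are Fos, Fosb, Jun, Junb, Egr1, Egr2, Atf3, Ier2, Ier3 and Dusp1. They were chosen by name, and each symbol matched 1 gene among the 21960 listed for every tumor. RNA was sequenced from 12 whole snap-frozen mammary tumors of female C57BL/6 mice that carry the polyoma middle T oncogene under the mouse mammary tumor virus promoter (MMTV-PyMT), which is active in mammary epithelium, with 3 tumors in each of 4 treatment groups. All mice received an antibody. The IgG1 group received the isotype control and the anti-PD-1 group the antibody that blocks PD-1, each from a tumor diameter of 0.6 cm, with a first dose of 20 mg/kg and later doses of 10 mg/kg. The groups DOX/IgG1 and DOX/anti-PD-1 received 5 mg/kg doxorubicin and the same antibodies at 10 mg/kg from a diameter of 1 cm, and the labels give 5 weeks for all groups, while the treatment protocol gives a shorter course of antibody without doxorubicin. Doxorubicin therefore comes with a larger tumor when treatment began, a smaller opening antibody dose and a different antibody schedule, and these cannot be told apart.

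Growth factors, stress and calcium reach these genes through the MAP kinases, which activate ternary complex factors, serum response factor and CREB at their promoters. Fos and Jun proteins pair to form AP-1, which goes on to regulate later genes, while others of the set shut the signal off again. The transcripts decay fast, and handling of tissue (warming, loss of blood flow, dissociation) is known to induce them, so they are also read as a sign of what a sample went through before it was frozen. The labels give neither the time from the last injection to collection nor the time from collection to freezing, and nothing in them marks a batch. In whole tumors, fewer cells of a type and less RNA per cell cannot be told apart.

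The values are taken as TPM from the study's methods, since the values alone do not tell TPM from FPKM. These give the share of a transcript and not its reads, so how deeply each library was sequenced is unknown. The listed genes summed to between 609418 TPM (IgG1 replicate 1) and 725506 TPM (DOX/anti-PD-1 replicate 2), and no mitochondrial gene is listed. The tumors thus differ in the total of the listed values, and results after scaling by the median of ratios are given where they turn. In the labelled tumor tissue the luminal epithelial markers were abundant, with the 8 genes of that list (Epcam the most abundant, with Krt8, Krt18, Krt19, Cdh1, Elf5, Cldn3 and Cldn7) summing to between 2374 and 3993 TPM per tumor. The column heading of DOX/IgG1 replicate 1 carries the word test, which the labels do not explain. In that library the 6 erythrocyte genes summed to 2349 TPM, against 41.9 to 297 TPM in the other 11, and the main results that rest on it are also given without it. Differences were tested with limma, two-sided, over all genes that reached 1 TPM in at least 3 tumors of the fit, and a gene was called when its adjusted p was below 0.1 and its log2 fold change lay beyond 1 in either direction. All 10 immediate early genes were tested in each of the 7 tests. The p-values measure the spread between these tumors.

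Every gene of the set was detected in every tumor. Averaged over the 12 tumors, Fos was the most abundant at 144.0 ± 92.0 TPM (SD, n = 12), followed by Jun at 62.7 ± 18.4, Ier3 at 51.4 ± 17.1, Junb at 36.1 ± 11.2 and Egr1 at 35.3 ± 20.9 TPM. Ier2 (17.8 ± 4.96), Dusp1 (17.5 ± 7.84) and Atf3 (16.6 ± 8.66) came next, and Fosb (8.95 ± 8.21) and Egr2 (5.50 ± 4.02 TPM) were lowest. TPM is scaled by transcript length, so these levels can be set side by side, and neighbours in this order differ by less than 1 SD of the more abundant gene. The genes differed in how far they ranged. The highest tumor exceeded the lowest 20.1-fold for Fosb, 14.2-fold for Atf3, 11.7-fold for Egr2, 6.88-fold for Fos and 5.21-fold for Egr1, but 2.35-fold for Ier2 and 2.25-fold for Junb.

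Fos (ENSMUSG00000021250, chr12:85473890-85477273, GRCm38, plus strand) encodes the AP-1 subunit that dimerizes with Jun proteins and cannot form a dimer with itself. It stood at 73.9, 159.6 and 145 TPM (IgG1), at 56.3, 55.1 and 81.6 TPM (anti-PD-1), at 258, 342 and 148 TPM (DOX/IgG1) and at 131, 49.7 and 229 TPM (DOX/anti-PD-1). The anti-PD-1 tumors were low and close together, the DOX/IgG1 tumors high, and the DOX/anti-PD-1 tumors spread from the lowest of all 12 to near the top. In order the group means were 249 ± 97.4 TPM in DOX/IgG1, 137 ± 89.9 in DOX/anti-PD-1, 126 ± 45.8 in IgG1 and 64.3 ± 15.0 TPM in anti-PD-1 tumors (SD, n = 3), and of the neighbours in this order only DOX/anti-PD-1 and IgG1 lie within 1 SD of each other. Fosb (ENSMUSG00000003545, chr7:19302696-19310051, minus strand), a Fos relative with the same partners, stood at 18.1, 12.1 and 6.50 TPM (IgG1), 1.35, 1.37 and 2.56 TPM (anti-PD-1), 27.2, 17.6 and 6.74 TPM (DOX/IgG1) and 3.56, 2.18 and 8.25 TPM (DOX/anti-PD-1). All anti-PD-1 tumors lay below all IgG1 tumors, and with doxorubicin only DOX/anti-PD-1 replicate 3 reached above a DOX/IgG1 tumor, replicate 3. Its group means were 17.2 ± 10.2 TPM in DOX/IgG1, 12.2 ± 5.78 in IgG1, 4.66 ± 3.18 in DOX/anti-PD-1 and 1.76 ± 0.693 TPM in anti-PD-1 tumors (SD, n = 3), so the anti-PD-1 groups were the lowest in both arms.

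Jun (ENSMUSG00000052684, chr4:95049034-95052222, minus strand), the AP-1 subunit that can pair with itself or with Fos proteins, stood at 73.5, 56.8 and 63.0 TPM (IgG1), 50.9, 36.8 and 50.7 TPM (anti-PD-1), 59.4, 77.0 and 110.2 TPM (DOX/IgG1) and 66.3, 54.7 and 53.9 TPM (DOX/anti-PD-1). The 3 anti-PD-1 tumors were the lowest of all, below every tumor of the other groups. Junb (ENSMUSG00000052837, chr8:84974484-84978718, minus strand), which often holds back what Jun activates, stood at 50.9, 30.2 and 34.8 TPM (IgG1), 25.3, 24.7 and 31.3 TPM (anti-PD-1), 52.7, 55.6 and 34.7 TPM (DOX/IgG1) and 24.8, 28.4 and 39.4 TPM (DOX/anti-PD-1). The high Junb tumors, IgG1 replicate 1 and DOX/IgG1 replicates 1 and 2, are also the 3 highest for Fosb, and the groups overlap.

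**Figure D1:**
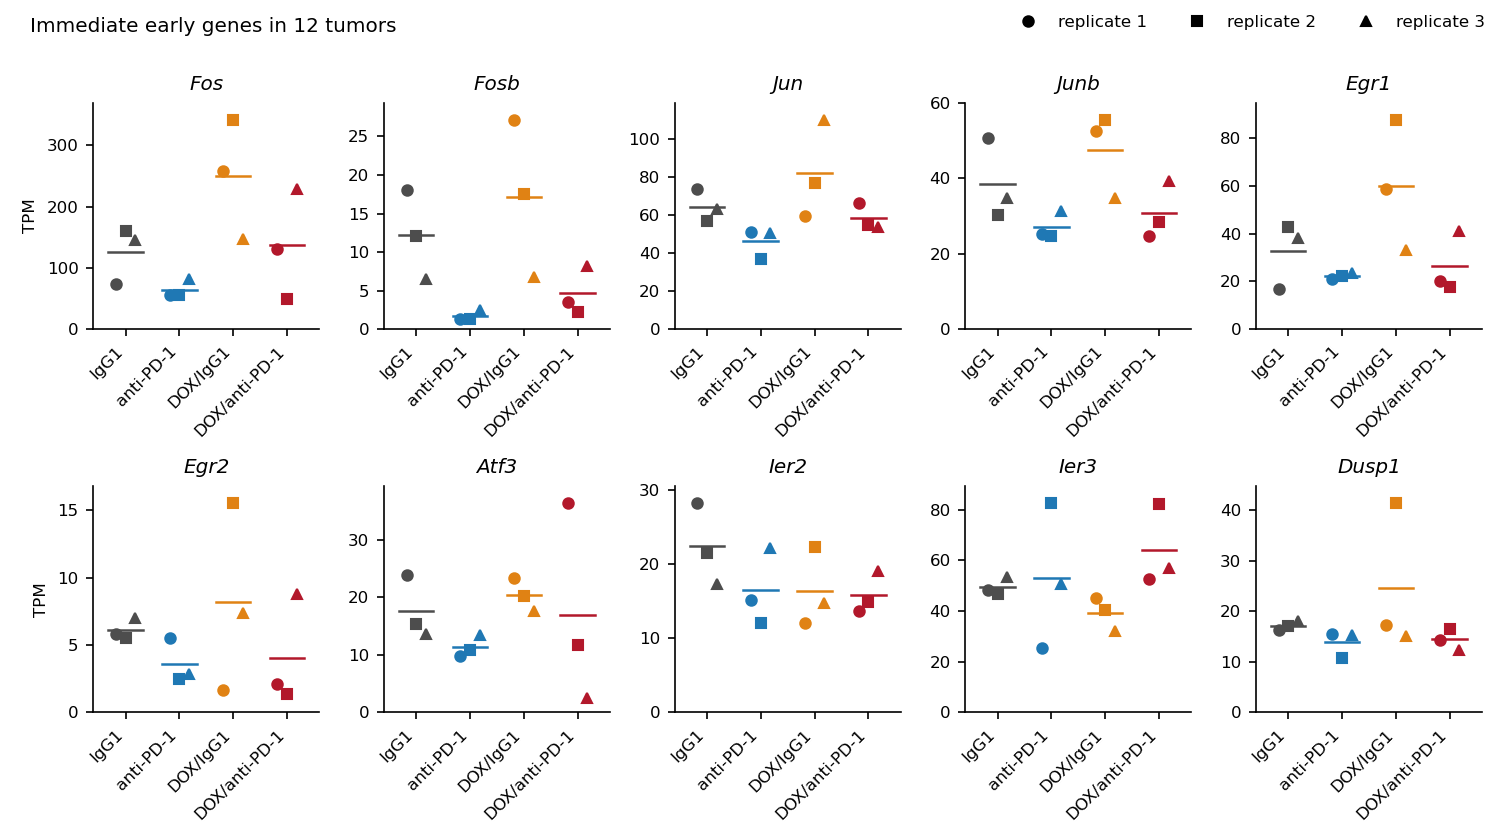
TPM of the 10 genes in each tumor (points, shape by replicate) with the mean of each group (line, n = 3), each axis from 0. Fosb lies between 1.35 and 2.56 TPM (anti-PD-1) and between 6.50 and 18.1 TPM (IgG1), and Egr1 spans 16.8 to 87.7 TPM over the 12 tumors.

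Promoters are shown for Fos, Fosb and Junb, whose transcripts varied together with other members, and for Dusp1, the member with a full cAMP response element. RefSeq promoters (GRCm38.p6) were matched by symbol for 8 of the 10 genes, with 12 start sites in all, and not for Egr1 and Ier2. The 250 bases before each start were searched on both strands for the cAMP response element TGACGTCA, its core TGACG (which lies in every full element), the AP-1 site TGACTCA, the TATA box TATAAA and the CArG box bound by serum response factor. The capitals mark the matches, and the stretches are chr12:85473640-85473889, plus strand, for Fos, chr7:19310046-19310295, minus strand, for Fosb, chr8:84978749-84978998, minus strand, for Junb and chr17:26508473-26508722, minus strand, for Dusp1.
Fos: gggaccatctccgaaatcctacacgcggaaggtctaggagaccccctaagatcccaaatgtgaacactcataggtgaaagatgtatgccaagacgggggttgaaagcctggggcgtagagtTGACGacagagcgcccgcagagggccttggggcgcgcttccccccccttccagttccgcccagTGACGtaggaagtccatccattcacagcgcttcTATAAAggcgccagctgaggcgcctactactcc
Fosb: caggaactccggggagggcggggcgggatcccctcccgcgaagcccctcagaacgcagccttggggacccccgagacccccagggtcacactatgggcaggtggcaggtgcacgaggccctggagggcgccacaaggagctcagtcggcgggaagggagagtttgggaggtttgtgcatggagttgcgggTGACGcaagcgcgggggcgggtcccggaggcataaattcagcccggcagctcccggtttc
Junb: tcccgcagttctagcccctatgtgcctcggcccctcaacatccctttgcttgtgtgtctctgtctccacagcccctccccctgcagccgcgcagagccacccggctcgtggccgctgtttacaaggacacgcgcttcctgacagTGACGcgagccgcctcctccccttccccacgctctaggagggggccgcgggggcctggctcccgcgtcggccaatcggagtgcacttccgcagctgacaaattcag
Dusp1: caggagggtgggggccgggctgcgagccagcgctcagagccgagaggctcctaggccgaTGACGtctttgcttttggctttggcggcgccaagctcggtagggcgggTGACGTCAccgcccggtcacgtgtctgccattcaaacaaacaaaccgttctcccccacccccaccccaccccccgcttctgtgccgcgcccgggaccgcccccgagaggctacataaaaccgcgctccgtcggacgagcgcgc

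The core was found before 6 of the 8 genes (Fos, Fosb, Junb, Egr2, Atf3 and Dusp1), against 17.8% of all 32851 promoters in the table. Counts of the 8 genes take a match at any of their 12 start sites, of which Egr2 has several. The percentages here are per promoter, so counts and percentages are not alike. The full element was found before Dusp1 only, against 1.55% of all promoters. The TATA box was found before Fos (12.4% of all promoters), the CArG box before Egr2 (1.47%) and the AP-1 site before none of the 8 (4.46%). Jun and Ier3 had no match to any of the 5 motifs in this window. A match is a run of letters and says nothing of binding in these tumors.

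Egr1 (ENSMUSG00000038418) and Egr2 (ENSMUSG00000037868) encode zinc finger factors that bind GC-rich promoters and follow the same MAP kinase signals as Fos. Egr1 stood at 16.8, 43.0 and 38.4 TPM (IgG1), 21.2, 22.2 and 23.5 TPM (anti-PD-1), 58.8, 87.7 and 33.2 TPM (DOX/IgG1) and 20.0, 17.7 and 41.2 TPM (DOX/anti-PD-1). As with Fos, the anti-PD-1 tumors were tight and low and DOX/IgG1 replicate 2 was highest, but IgG1 replicate 1 was the lowest of all, so the groups without doxorubicin overlap. Egr2 was lower throughout, from 1.33 to 15.6 TPM, with its highest value in the same DOX/IgG1 replicate 2 and its lowest in DOX/anti-PD-1 replicate 2.

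Atf3 (ENSMUSG00000026628), a stress-induced factor of the ATF/CREB family that represses many of its targets, stood at 23.9, 15.3 and 13.6 TPM (IgG1), 9.85, 10.9 and 13.4 TPM (anti-PD-1), 23.4, 20.2 and 17.5 TPM (DOX/IgG1) and 36.4, 11.7 and 2.56 TPM (DOX/anti-PD-1). The anti-PD-1 tumors lay just below the IgG1 tumors, while the DOX/anti-PD-1 group held both the highest and the lowest of the 12. Ier3 (ENSMUSG00000003541), a regulator of apoptosis and a target of NF-kappaB, stood at 48.4, 46.9 and 53.3 TPM (IgG1), 25.2, 82.7 and 50.8 TPM (anti-PD-1), 45.3, 40.3 and 32.2 TPM (DOX/IgG1) and 52.6, 82.3 and 57.0 TPM (DOX/anti-PD-1). Its pattern differs from that of Fos, with the DOX/IgG1 tumors below every IgG1 tumor and every DOX/anti-PD-1 tumor. Dusp1 (ENSMUSG00000024190), the phosphatase that switches MAP kinases off, stood at 16.2, 17.0 and 18.0 TPM (IgG1), 15.6, 10.7 and 15.2 TPM (anti-PD-1), 17.3, 41.5 and 15.1 TPM (DOX/IgG1) and 14.4, 16.6 and 12.4 TPM (DOX/anti-PD-1). DOX/IgG1 replicate 2 stood far above the rest, and the other 11 tumors lay close together. Ier2 (ENSMUSG00000053560), a nuclear protein of the same early response, ranged least beside Junb, from 12.0 TPM in DOX/IgG1 replicate 1 to 28.3 TPM in IgG1 replicate 1.

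Anti-PD-1 and IgG1 tumors, both without doxorubicin, were compared first. By the mean of log2(TPM + 1), on which all tests were run, the 10 genes were lower with anti-PD-1, with a median log2 fold change of -0.48 against -0.03 over all 13692 genes tested. Ier3 was near level on that scale (-0.06, standard error 0.38) and was higher by its mean TPM (52.9 against 49.5), so its direction depends on the scale. No gene of the set passed both limits of limma, as no gene at all did (0%), and at an unadjusted p below 0.05 the set held 2 genes, Fos and Fosb, where 4.60% of all genes passed. Both were lower, a direction in which 2.85% of all genes passed. Fosb differed by -2.19 on the log2 scale (standard error 0.44, limma adjusted p = 0.564) and was lower in 3 of 3 anti-PD-1 tumors, and its p was the 11th smallest of all genes. Fos differed by -0.91 (standard error 0.32, adjusted p = 0.996). The groups did not overlap for 4 of the 10 (Fosb, Jun, Atf3 and Dusp1, all lower), against 9.88% of all genes. For these 4 the exact permutation p was 0.1, which no comparison of 3 tumors with 3 can undercut. Without IgG1 replicate 1, the count at an unadjusted p below 0.05 was 3, and it was 1 without IgG1 replicate 2, IgG1 replicate 3 or anti-PD-1 replicate 2 and in a fit of all 12 tumors.

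With doxorubicin in both groups, DOX/anti-PD-1 against DOX/IgG1, 9 of the 10 genes were lower on average and Ier3 was higher, with a median log2 fold change of -0.70 against -0.04 over all 13946 genes. Ier2 was level (-0.01), and after scaling by the median of ratios its difference was 0.02. None of the 10 passed both limits of limma (0% of all genes did). At an unadjusted p below 0.05 there were 3 (Fosb, Egr1 and Ier3), against 4.70% of all genes, and 2 of these, Fosb and Egr1, were lower, against 2.89%. Fosb differed by -1.64 (standard error 0.60, adjusted p = 0.988), with 2 of 3 DOX/anti-PD-1 tumors below every DOX/IgG1 tumor. Egr1 followed with -1.15 (standard error 0.43, adjusted p = 0.988) and Fos with -1.03 (standard error 0.53). Ier3 was higher by 0.68 (standard error 0.27, adjusted p = 0.988), in 3 of 3 tumors, and was the only gene of the set whose groups did not overlap, against 10.2% of all genes. The count at an unadjusted p below 0.05 moved from 3 to 5 without DOX/anti-PD-1 replicate 3, to 4 without DOX/IgG1 replicate 3, to 2 without replicate 1 of either group and to 0 without replicate 2 of either group. That count was also 2 with a replicate block and in a fit of all 12 tumors. Without DOX/IgG1 replicate 1 the 2 were Ier3 and Jun, and neither Fosb (-1.23, standard error 0.61) nor Egr1 (-1.11) was below 0.05. Fos ran from -1.53 to -0.44 with a tumor left out.

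Taking anti-PD-1 over both chemotherapy arms, with doxorubicin as a term in a fit of all 12 tumors, set the antibody against the spread of 6 tumors a side. Here 9 of 10 genes were lower and Ier3 higher, with a median log2 fold change of -0.62 against -0.03 over all 14735 genes. Again 0 of the 10 passed both limits of limma (0% of all genes). At an unadjusted p below 0.05 there were 5 (Fos, Fosb, Jun, Junb and Egr1), against 4.69% of all genes, all of them lower, against 2.91%. Fosb differed by -1.91 on the log2 scale (standard error 0.38, adjusted p = 0.544), and only 3 genes had a smaller p. The others were Fos at -0.97 (standard error 0.33, adjusted p = 0.897), Egr1 at -0.79 (0.30, adjusted p = 0.965), Junb at -0.54 (0.19, adjusted p = 0.934) and Jun at -0.47 (0.17, adjusted p = 0.963). With labels permuted within each arm, the exact test, not adjusted, gave p = 0.01 for Fosb, p = 0.03 for Fos, p = 0.015 for Jun, p = 0.025 for both Junb and Dusp1 and p = 0.04 for Egr1, where the smallest possible p is 0.005. Dusp1 differed by -0.45 (standard error 0.24, from -0.55 to -0.24 with a tumor left out) and was not below 0.05 by limma. Leaving out each tumor in turn gave Fosb differences from -2.17 to -1.74 and 4 to 6 genes at an unadjusted p below 0.05. Without DOX/IgG1 replicate 1 it was -1.76 (standard error 0.39, adjusted p = 0.438) and Fos was -0.93.

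**Figure D2:**
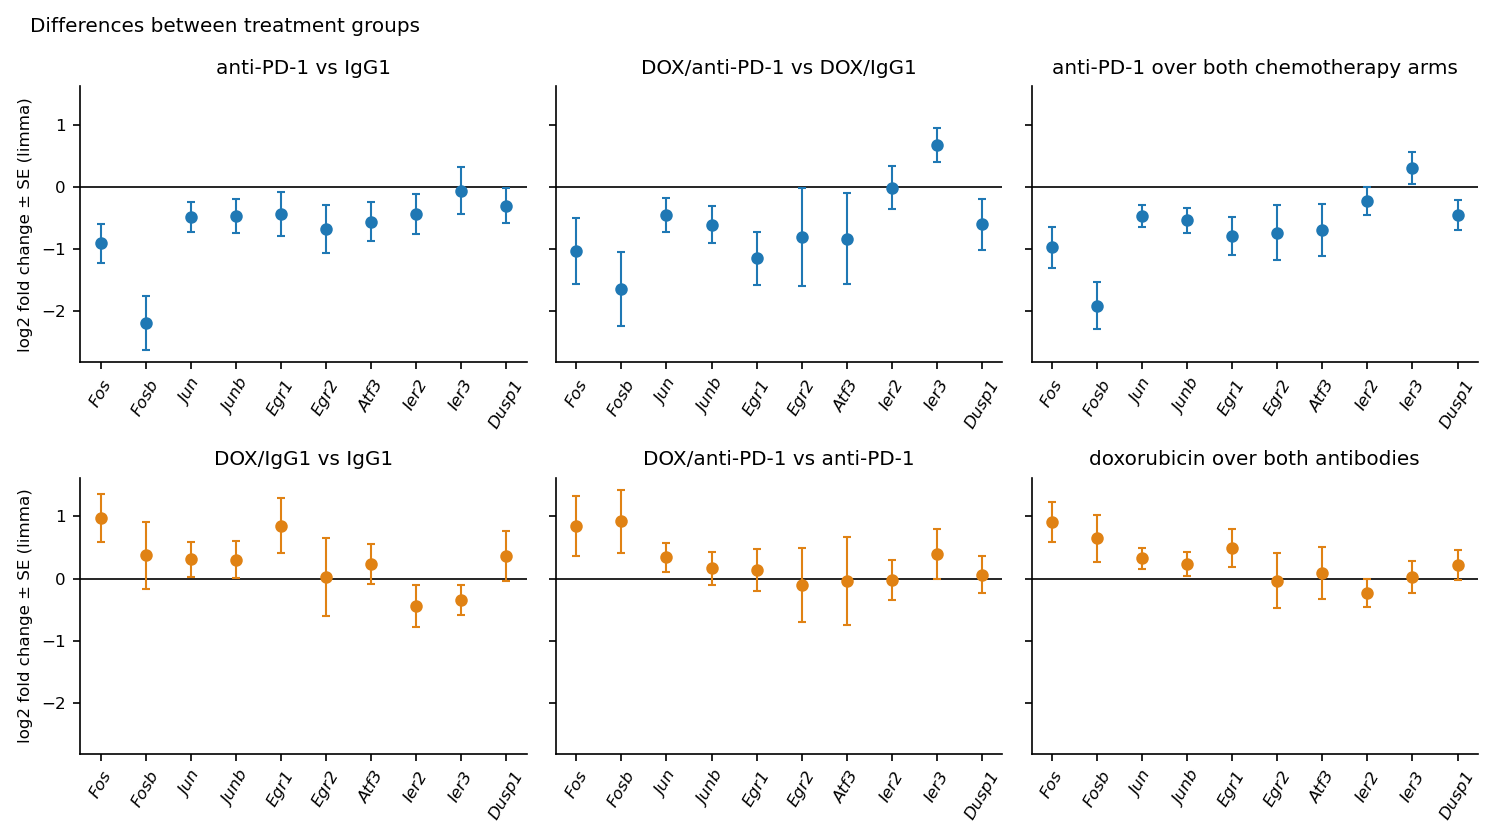
Log2 fold change of each gene (points) with its standard error (bars) from limma. The upper panels compare anti-PD-1 with IgG1 and the lower panels tumors with and without doxorubicin. Fosb is lowest in each upper panel (-2.19, -1.64 and -1.91), and in the lower panels Fos lies near 1 (0.97, 0.85 and 0.91). No gene passed both limits.

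DOX/IgG1 and IgG1 tumors were compared for doxorubicin with the control antibody. On average 8 of the 10 genes were higher and Ier2 and Ier3 lower, with a median log2 fold change of 0.31 against 0.12 over all 13874 genes. Scaling by the median of ratios took the median of all genes from 0.12 to 0.01 and that of the 10 genes to 0.19, with 7 higher, since Egr2 turned from 0.03 to -0.08. None of the 10 passed both limits of limma, against 0.0360% of all genes (5 genes). At an unadjusted p below 0.05 there was 1, Fos, against 7.73% of all genes. Fos was higher by 0.97 (standard error 0.39, adjusted p = 0.610), with 2 of 3 DOX/IgG1 tumors above every IgG1 tumor. Without DOX/IgG1 replicate 1 it was 0.90 (standard error 0.43) and the count of 1 became 0, as it did without IgG1 replicate 1, without DOX/IgG1 replicate 2 and in a fit of all 12 tumors, while it was 2 without DOX/IgG1 replicate 3. Egr1 was higher by 0.85 (standard error 0.44), and by 0.81 without DOX/IgG1 replicate 1. With any tumor left out Egr1 ran from 0.44 to 1.21 and Fos from 0.63 to 1.30. Only Ier3 had groups that did not overlap (-0.34, standard error 0.24, from -0.45 to -0.21 with a tumor left out), against 14.0% of all genes. Fosb, at 0.37, was -0.04 without DOX/IgG1 replicate 1. Without the same tumor 122 genes were called, none of them among the 10.

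For doxorubicin with the blocking antibody, DOX/anti-PD-1 tumors were set against those given anti-PD-1 alone. Of the 10 genes 7 were higher by the mean of log2(TPM + 1), with a median log2 fold change of 0.15 against 0.11 over all 13736 genes, and the scaling took these medians to 0.03 and -0.01, with 6 higher. Atf3 (-0.05) and Egr2 (-0.11), counted as lower, were higher by mean TPM (16.9 against 11.4 and 4.07 against 3.62), so their direction depends on the scale. The set held 0 genes past both limits of limma (0% of all genes) and 0 at an unadjusted p below 0.05, where 8.63% of all genes passed. Fosb (0.92, standard error 0.50, adjusted p = 0.638) and Fos (0.85, standard error 0.48) had the largest differences, which ran from 0.49 to 1.26 and from 0.35 to 1.44 with a tumor left out. Jun was the only gene with groups that did not overlap, higher by 0.34 (standard error 0.24, from 0.19 to 0.42 with a tumor left out) in 3 of 3 tumors, against 14.9% of all genes. The count of 0 at an unadjusted p below 0.05 became 2 without DOX/anti-PD-1 replicate 2 and 1 with a replicate block. This comparison shares the anti-PD-1 tumors with the antibody comparison above, and those tumors were low for Jun, Fos and Fosb.

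For doxorubicin over both antibodies, 8 of the 10 genes were higher, with a median of 0.22 against 0.12 over all genes, or 0.11 against 0.01 after scaling, where 6 were higher because Atf3 and Ier3 turned. In that setting 3 genes were called higher and 11 lower among all genes, where the values as deposited gave 3 higher and 0 lower. None of the 10 was called, against 0.0204% of all genes (3 genes), and 1, Fos, had an unadjusted p below 0.05, against 12.0%. That count was 2 without DOX/IgG1 replicate 1, where Jun stood at 0.42 (standard error 0.17, limma adjusted p = 0.263) beside Fos at 0.87, and 2 without DOX/IgG1 replicate 3. Fos was higher by 0.91 (standard error 0.33, adjusted p = 0.303) and Egr1 by 0.49 (standard error 0.30), which ran from 0.69 to 1.18 and from 0.27 to 0.63 with a tumor left out. The exact test within antibodies gave p = 0.06 for Fos and p = 0.05 for Jun. The interaction between the drug and the antibody asks whether anti-PD-1 acts alike with and without chemotherapy. Again 0 of 10 genes were called, against 0.00679% of all genes (1 gene), and 0 had an unadjusted p below 0.05, against 4.71%. Its values were 4 positive and 6 negative, from -0.72 for Egr1 (standard error 0.60) to 0.73 for Ier3 (standard error 0.49, adjusted p = 0.993), with a median of -0.13 against -0.01. With a tumor left out Egr1 ran from -1.08 to -0.31, Ier3 from 0.29 to 1.13 and Fosb from 0.03 to 0.96. The counts turn on single tumors, with 7 positive and a median of 0.14 without DOX/IgG1 replicate 2, 6 positive and 0.18 without DOX/anti-PD-1 replicate 2, and 1 gene at an unadjusted p below 0.05 without anti-PD-1 replicate 2. For Fosb it was 0.55 (standard error 0.77), and 0.96 (standard error 0.76) without DOX/IgG1 replicate 1, so the antibody difference of Fosb was not shown to depend on doxorubicin.

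Within groups the genes differed in spread. The SD of log2(TPM + 1) within groups was 0.90 for Egr2 and 0.89 for Atf3, 0.72 for both Fos and Fosb and 0.59 for Egr1, and it was 0.29 for Jun and 0.32 for Junb, against a median of 0.48 over all genes tested. Of the total variation, 74.8% lay between groups for Fosb, 59.7% for Jun, 56.4% for Fos, 55.6% for Junb and 51.8% for Egr1. For the other 5 it ran from 19.7% (Atf3) to 36.7% (Dusp1), and the median over all genes was 27.4%. Fosb and Fos thus vary widely both within and between groups, while Jun and Junb are steady within groups and their smaller group differences stand out from a smaller spread.

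Across the 12 tumors, 45 pairs of the genes were compared. Pearson's r was positive in 33 pairs, with a median of 0.38, and all 12 negative pairs involve Ier3 or Atf3. A permutation p below 0.05 was found in 8 pairs and an adjusted p below 0.05 in 2. Fos and Egr1 had r = 0.90 (permutation p = 6e-05, adjusted p = 0.0027) and Spearman's rho = 0.88 (permutation p = 0.00042, adjusted p = 0.0189), with r = 0.90 without the 2 tumors farthest from the median of Fos. With group means subtracted r was 0.87 (adjusted p = 0.0126). Fosb and Junb had r = 0.89 (permutation p = 0.00017, adjusted p = 0.00383) and rho = 0.84 (permutation p = 0.00118, adjusted p = 0.0266), with r = 0.84 without the 2 farthest. With group means subtracted it was 0.80 (adjusted p = 0.0556). So r of these pairs stayed high also among tumors given the same treatment. The p-values with group means subtracted make no allowance for the means taken out and so come out too small. Whether either pair passes 0.05 there is not settled. Fos and Fosb had r = 0.76 (permutation p = 0.00584, adjusted p = 0.0876) and rho = 0.76 (permutation p = 0.00596, adjusted p = 0.0671), with r = 0.65 without the 2 farthest tumors and 0.53 with group means subtracted.

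**Figure D3:**
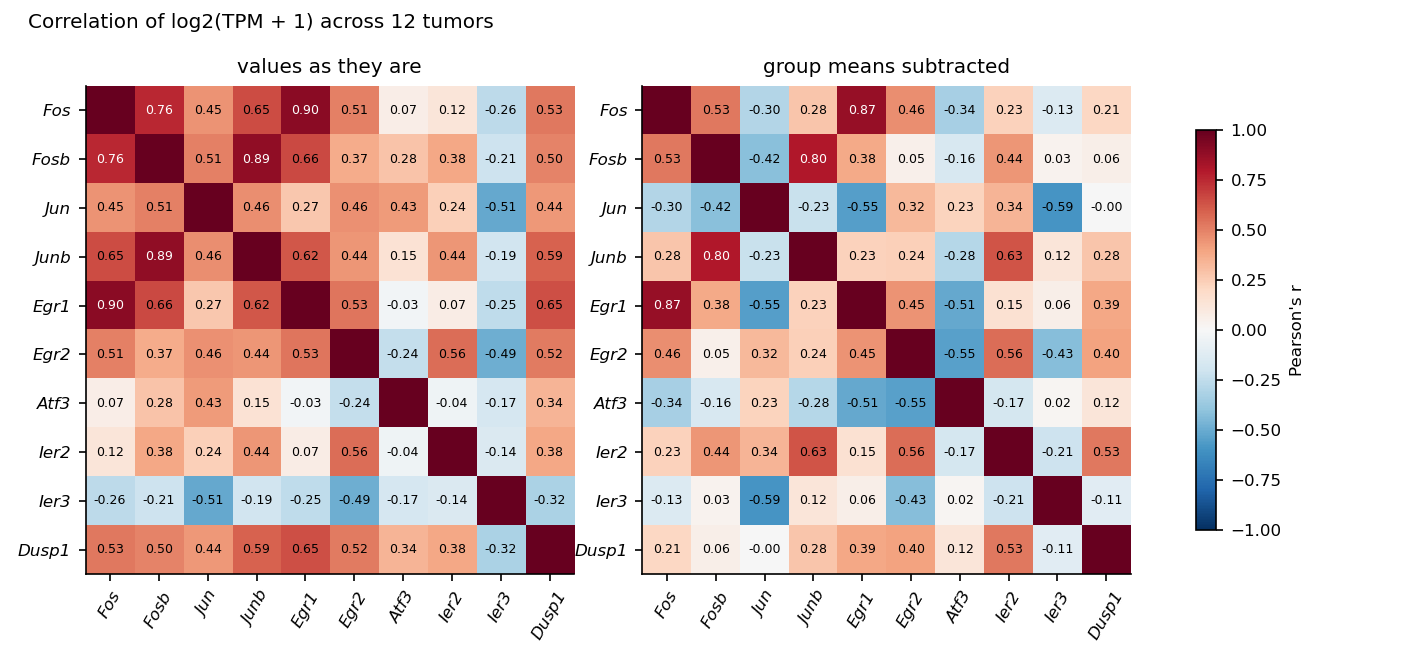
Pearson's r of log2(TPM + 1) for each pair over the 12 tumors, from the values (left) and with group means subtracted (right). Fos with Egr1 (0.90 and 0.87) and Fosb with Junb (0.89 and 0.80) are high in both panels, and Ier3 is negative with every other gene on the left.

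Ier3 was negative with all 9 others, most with Jun (r = -0.51, permutation p = 0.0872, adjusted p = 0.263, rho = -0.45, permutation p = 0.148). Without DOX/IgG1 replicate 3 and anti-PD-1 replicate 2, the tumors farthest from the median of Jun, r was 0.00, so the value over all tumors rests on them. With group means subtracted it was -0.59 (permutation p = 0.0428, adjusted p = 0.399), within the doxorubicin arm -0.84, and with a tumor left out it ran from -0.83 to -0.32. Subtracting group means left 29 of 45 pairs positive, with a median r of 0.12. There 1 pair was past the adjusted limit, by p-values that make no allowance for the means subtracted and so are too small for that limit. Leaving out each tumor in turn gave 2 to 6 pairs past it, and 6 without IgG1 replicate 1, the tumor with low Fos and Egr1 but high Fosb and Junb. Compared with the mean of the other 9 within groups, Ier2 had the closest pattern of the set (r = 0.70, rank 115 of 14735 genes), while Ier3 (-0.27, rank 11199), Jun (-0.27, rank 11587) and Atf3 (-0.36, rank 12337) were negative with it. The genes most like the mean of all 10 within groups, over 12 tumors, were Dnal4 (r = 0.95, or 0.48 with group means kept), Nmnat1 (0.93, or 0.65) and Zfp36 (0.93, or 0.78), a list taken from the top of all genes and so given without a test. Zfp36, which encodes an RNA-binding protein that speeds the decay of AU-rich transcripts, is itself an early response gene and stood at 11.4 to 38.2 TPM, highest in DOX/IgG1 replicate 2.

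**Figure D4:**
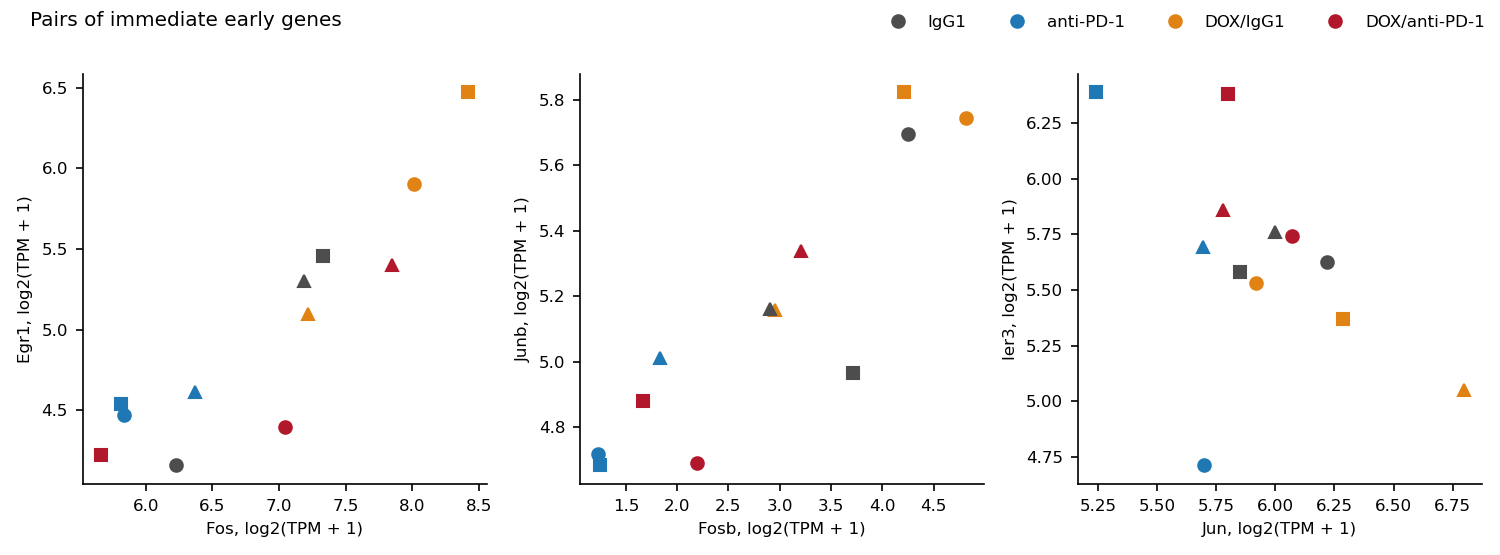
Pairs of genes in each tumor (color by group, shape by replicate), as log2(TPM + 1). Egr1 follows Fos (r = 0.90) and Junb follows Fosb (r = 0.89), while the relation of Ier3 and Jun (r = -0.51) is 0.00 without DOX/IgG1 replicate 3 and anti-PD-1 replicate 2 and -0.59 with group means subtracted.

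The pathway around the set was read from lists of other genes. Of 24 other early response effectors tested (such as Cyr61, Btg2, Sgk1 and Phlda1, the most abundant), 21 were lower with anti-PD-1 without doxorubicin, with a median of -0.33 and 1 at an unadjusted p below 0.05 (4.60% of all genes), and 17 of 24 with doxorubicin, with a median of -0.21. Over both arms 24 of 25 were lower, with a median of -0.25 against -0.03 over all genes, 2 of them at an unadjusted p below 0.05 (4.69% of all genes) and none called by limma. Rhob was the exception, at 0.19 (standard error 0.19). The largest difference was that of Cxcl1, a neutrophil chemokine, at -1.09 (standard error 0.55, adjusted p = 0.999). Of 20 other early transcription factors tested (Bhlhe40 the most abundant, with the Klf, Nr4a and Egr3 genes), 15 were lower over both arms, with a median of -0.14 and 0 at an unadjusted p below 0.05 (4.69% of all genes). By arm, 12 of 19 factors were lower without doxorubicin, with a median of -0.16, and 9 of 20 with it, with a median of 0.04. No effector or factor was called for the interaction, so a difference between arms was not shown. With doxorubicin over both antibodies they did not lean one way, with 13 of 25 effectors and 12 of 20 factors higher.

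Of 15 feedback inhibitors, which include the Dusp phosphatases and the Sprouty and Spred proteins, 10 were higher over both arms with anti-PD-1, with a median of 0.10. Dusp2 had the largest difference and was lower, at -1.25 (standard error 0.35, limma adjusted p = 0.729). It stood at 5.62, 1.42 and 3.60 TPM (IgG1), 0, 1.17 and 1.12 TPM (anti-PD-1), 4.60, 9.42 and 4.11 TPM (DOX/IgG1) and 2.63, 1.13 and 2.39 TPM (DOX/anti-PD-1). The anti-PD-1 tumors lay below the controls in each arm, where the groups of 9.88% (without doxorubicin) and 10.2% (with it) of all genes did not overlap. The values are low, and without doxorubicin the nearest were 1.17 TPM (anti-PD-1) and 1.42 TPM (IgG1). Of 33 upstream kinases and factors (Elk4 the most abundant), 14 were higher and 19 lower, with a median of -0.05, and of 13 AP-1 partners (Atf7 the most abundant) 7 were higher and 6 lower, with a median of 0.03. For doxorubicin over both antibodies, 11 of 15 inhibitors, 22 of 33 upstream genes and 9 of 13 partners were higher, with medians of 0.14, 0.17 and 0.10, close to the 0.12 of all genes. No gene of these 5 lists was called in any of the 7 tests.

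As a check on collection, the set was read tumor by tumor. The 10 genes together summed to 356, 408 and 397 TPM (IgG1), 226, 259 and 294 TPM (anti-PD-1), 555, 719.7 and 419 TPM (DOX/IgG1) and 365, 279 and 472 TPM (DOX/anti-PD-1). The 4 lowest sums were those of the anti-PD-1 tumors and DOX/anti-PD-1 replicate 2, and the DOX/IgG1 group overlapped only with DOX/anti-PD-1. DOX/IgG1 replicate 2 was the highest of the 12 for 5 genes (Fos, Junb, Egr1, Egr2 and Dusp1) and above the median of the 12 for 9 of 10. No tumor was low or high for all 10. The anti-PD-1 tumors were above the median for 1, 1 and 2 genes and the DOX/anti-PD-1 tumors for 3, 2 and 7, so that DOX/anti-PD-1 replicate 3 resembled the controls (IgG1 7, 6 and 8, DOX/IgG1 7, 9 and 7).

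Heat shock genes are induced by warming and other stress. The 12 genes of the list, Hspa8 the most abundant, summed to 4741, 5641 and 5967 TPM (IgG1), 4481, 4991 and 4678 TPM (anti-PD-1), 5777, 3431 and 3646 TPM (DOX/IgG1) and 4046, 3499 and 3913 TPM (DOX/anti-PD-1). DOX/IgG1 replicate 2, highest for the early genes, was the lowest for these. For doxorubicin over both antibodies 11 of 12 were lower, with a median of -0.26 against 0.12 over all genes and 3 at an unadjusted p below 0.05, against 12.0% of all genes. For anti-PD-1 over both arms 8 of 12 were lower, the direction of the set, with a median of -0.14 against -0.03 and 1 at an unadjusted p below 0.05, against 4.69% of all genes. By arm, 5 of 12 were lower without doxorubicin (median 0.05) and 9 of 12 with it (-0.20). The largest difference over both arms was that of Hspa1b at -0.71 (standard error 0.22, adjusted p = 0.844), whose sequence is so close to that of Hspa1a that their separate values are uncertain. Across tumors the list's mean had r = -0.27 with Fos (permutation p = 0.396, adjusted p = 0.805, rho = -0.17, permutation p = 0.603) and r = 0.13 with Fosb (permutation p = 0.684, adjusted p = 0.896, rho = 0.09, permutation p = 0.785). Without the 2 farthest tumors these were 0.02 and 0.07, and with group means subtracted -0.26 and 0.20. The part of stress in the values of the set was not tested.

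Hypoxia response genes, which build up when blood flow stops, were 14 in number with Ldha the most abundant. They summed to 989, 1080.0 and 817 TPM (IgG1), 1054, 995 and 1287 TPM (anti-PD-1), 1188, 849 and 676 TPM (DOX/IgG1) and 893, 1189 and 657 TPM (DOX/anti-PD-1). The groups overlap, and 7 were higher and 7 lower with anti-PD-1 over both arms, with a median of -0.02. With Fos their mean had r = -0.14 (permutation p = 0.671, adjusted p = 0.896, rho = -0.15, permutation p = 0.634), and with Fosb r = 0.27 (permutation p = 0.402, adjusted p = 0.805, rho = 0.30, permutation p = 0.342). Without the 2 farthest tumors these were -0.38 and 0.22, and with group means subtracted -0.56 and 0.07. DOX/IgG1 replicate 1 had the highest Vegfa of all tumors, at 187 TPM, and the highest Adm, at 27.9 TPM. It was also the highest for Fosb and for Cxcl1, at 37.0 TPM.

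**Figure D5:**
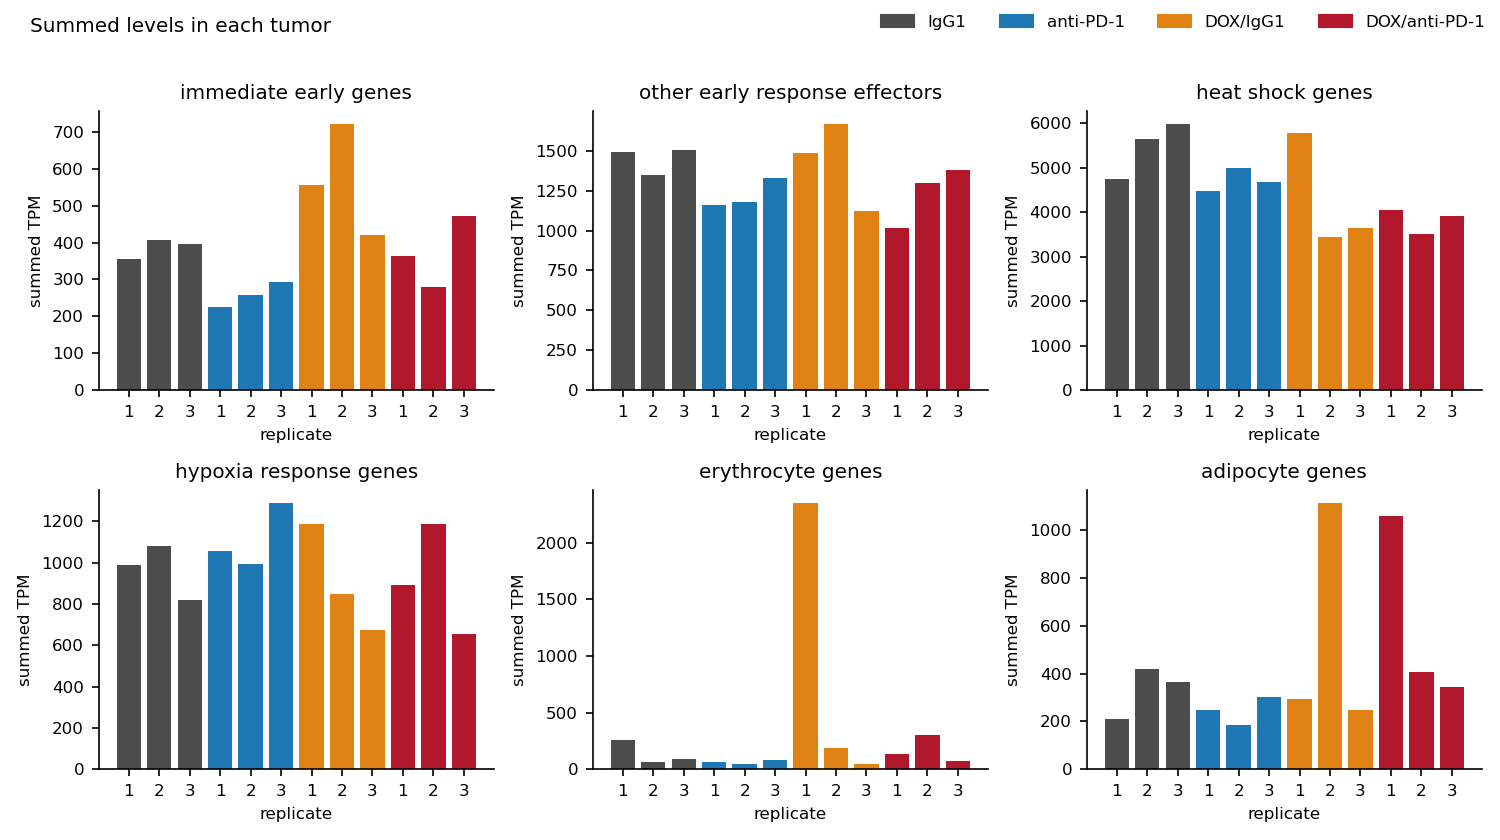
Summed TPM of 6 gene lists in each tumor (bars, color by group, axes from 0). The early genes peak in DOX/IgG1 replicate 2 (719.7 TPM), where the heat shock sum is lowest (3431 TPM), and the erythrocyte genes peak in DOX/IgG1 replicate 1 (2349 TPM).

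Blood left in the tissue was read from 6 erythrocyte genes, Hbb-bs the most abundant. They summed to 260.0, 62.9 and 87.9 TPM (IgG1), 65.5, 44.6 and 78.5 TPM (anti-PD-1), 2349, 189 and 41.9 TPM (DOX/IgG1) and 131, 297 and 68.0 TPM (DOX/anti-PD-1). The globin pairs Hba-a1 and Hba-a2 and Hbb-bs and Hbb-bt are near-identical, so their separate values are uncertain. Of 5 tested, all 5 were lower with anti-PD-1 over both arms, the direction of Fosb, with a median of -1.24 against -0.03 over all genes. At an unadjusted p below 0.05 there was 1, against 4.69% of all genes. With doxorubicin, only replicate 1 of DOX/IgG1 had a sum above every DOX/anti-PD-1 tumor, and these counts are not given without it. Hbb-bt did not reach the filter among tumors given anti-PD-1, so it was tested only with the help of tumors given IgG1. Its part in these counts supports nothing. The mean of the erythrocyte genes had r = 0.58 with Fosb (permutation p = 0.0398, adjusted p = 0.297, rho = 0.52, permutation p = 0.0886). It was 0.66 without the 2 tumors farthest from the median and 0.46 with group means subtracted. The part of blood in the Fosb difference was not tested, and that difference was -1.76 without DOX/IgG1 replicate 1.

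In all, 44 relations of Fos and Fosb with 22 such measures were computed (20 lists, the summed TPM and the number of genes listed at 0), and neither r nor rho had an adjusted p below 0.1 in any of them. The closest were Fosb with the other early response effectors (r = 0.77, permutation p = 0.00442, adjusted p = 0.111, rho = 0.77, permutation p = 0.00474), with r = 0.75 without the 2 farthest tumors and 0.59 with group means subtracted, and Fos with neutrophil markers (r = -0.75, permutation p = 0.00503, adjusted p = 0.111, rho = -0.73, permutation p = 0.00838), with r = -0.58 and -0.66 in the same settings. The neutrophil markers were near 0, with Ly6g at 0 in every tumor and sums of the 7 genes from 1.48 to 14.5 TPM, S100a8 the most abundant. The summed TPM of all listed genes had r = 0.24 with Fos (permutation p = 0.448) and 0.03 with Fosb (permutation p = 0.935), with rho = 0.21 (permutation p = 0.513) and 0.08 (permutation p = 0.817), with r = 0.51 and 0.64 without the 2 farthest tumors and -0.08 and -0.50 with group means subtracted.

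Markers of other cells were read in the same comparisons, and none was called with anti-PD-1. With anti-PD-1 over both arms, 7 of 8 macrophage markers were lower (median -0.32, led by Cd68 at -0.72, standard error 0.27), and their sums were 546, 375 and 449 TPM (IgG1), 317, 406 and 341 TPM (anti-PD-1), 693, 533 and 454 TPM (DOX/IgG1) and 361, 549 and 396 TPM (DOX/anti-PD-1), with C1qa the most abundant and none at 0. Also lower were 6 of 8 fibroblast (median -0.11), 5 of 8 endothelial (-0.11), 5 of 7 pericyte and smooth muscle (-0.16), 5 of 6 T cell (-0.39), 5 of 8 luminal (-0.09), 4 of 7 basal (level), 4 of 8 adipocyte (-0.04), 2 of 8 skeletal muscle (0.22) and 4 of 5 salivary gland genes (-0.95). Of the neutrophil markers tested, 0 of 3 were lower. By arm, without doxorubicin, where all 10 early genes had a negative log2 fold change, 8 of 8 fibroblast (median -0.24), 7 of 8 adipocyte (-0.54), 7 of 8 luminal (-0.21), 7 of 8 macrophage (-0.24), 6 of 8 endothelial (-0.25), 5 of 7 basal (-0.22), 5 of 7 pericyte and smooth muscle (-0.39), 5 of 8 skeletal muscle (-0.35), 3 of 6 T cell (-0.18), 1 of 2 neutrophil (0.23), 1 of 3 salivary gland (0.14) and 5 of 5 erythrocyte genes (-1.08) were lower. Col1a1, a collagen chain and the most abundant fibroblast gene, differed by -1.50 (standard error 0.30, limma adjusted p = 0.564) and Hbb-bt by -3.44 (standard error 0.59, adjusted p = 0.443). Hbb-bt did not reach the filter among tumors given anti-PD-1. It was tested here only with the help of the IgG1 tumors, so its lower value supports nothing. With doxorubicin it was 3 of 8 fibroblast (0.11), 2 of 8 adipocyte (0.31), 4 of 8 luminal (0.08), 7 of 8 macrophage (-0.35), 3 of 8 endothelial (0.14), 2 of 7 basal (0.06), 4 of 7 pericyte and smooth muscle (-0.05), 2 of 8 skeletal muscle (0.36), 5 of 6 T cell (-0.55), 0 of 2 neutrophil (1.18), 5 of 5 salivary gland (-1.36) and 5 of 5 erythrocyte genes (-0.90). The erythrocyte count with doxorubicin is not given without DOX/IgG1 replicate 1, the only DOX/IgG1 tumor with an erythrocyte sum above every DOX/anti-PD-1 tumor. In that count Hbb-bt reached the filter only with the help of the DOX/IgG1 tumors. No marker listed here by arm was called for the interaction except the salivary gland gene Bpifa2. A difference between arms was not shown for the others. Bpifa2 is at 0 TPM outside DOX/IgG1 and reached the filter only through that group. Smr3a, another salivary gland gene, was tested only where DOX/IgG1 was in the fit. The lower values of Bpifa2 and Smr3a, over both arms and with doxorubicin, were fixed by the filter and support nothing. With doxorubicin the other salivary gland genes differed by -1.36 (Pip), -0.97 (Prol1) and -0.87 (Amy1). Pip did not reach the filter among tumors given anti-PD-1. It needed the DOX/IgG1 tumors to be tested in that arm, so its lower value there supports nothing. The fibroblast genes summed to 1231, 1162 and 1824 TPM (IgG1), 942, 861 and 709 TPM (anti-PD-1), 549, 1880.0 and 1312 TPM (DOX/IgG1) and 1098, 1436 and 1602 TPM (DOX/anti-PD-1). Without doxorubicin these sums did not overlap, as was so for 9.88% of single genes. Abundant genes weigh most in a sum. There Col1a1 (-1.50), Dpt (-0.85), Col3a1 (-0.54) and Col1a2 (-0.37) were lower, while Pdgfra (-0.10), Fap (-0.10), Lum (-0.07) and Dcn (-0.03) were near level. The part of these cells in the lower early genes was not tested. Macrophage markers had r = 0.60 with Fosb (permutation p = 0.0405, adjusted p = 0.297, rho = 0.62, permutation p = 0.0345), 0.35 without the 2 farthest tumors and 0.00 with group means subtracted. With Fos they had r = 0.27 (permutation p = 0.382, adjusted p = 0.805, rho = 0.22, permutation p = 0.482), -0.07 without the 2 farthest tumors and -0.60 with group means subtracted. Luminal markers had r = -0.43 with Fos (permutation p = 0.162, adjusted p = 0.647, rho = -0.45, permutation p = 0.147), -0.25 and -0.67 in the same settings.

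With doxorubicin over both antibodies, where Fos was higher and the median of all genes was 0.12 (0.01 after scaling), 8 of 8 adipocyte genes (median 0.84, Cfd the most abundant), 8 of 8 macrophage (0.24), 6 of 6 T cell (0.82), 7 of 7 basal (0.45), 5 of 5 salivary gland (1.37) and 4 of 5 erythrocyte genes (1.13) were also higher, and 7 of 8 luminal genes were lower (-0.21). The erythrocyte sums with and without doxorubicin overlap, with that of DOX/IgG1 replicate 1 by far the highest, and the erythrocyte count is not given without it. Of the salivary gland genes, Smr3a and Bpifa2 were tested only where DOX/IgG1 was in the fit and reached the filter through that group. Their direction was fixed by the filter and supports nothing. The same holds for their calls in DOX/IgG1 vs IgG1 (limma adjusted p = 0.0334 for both). Apart from them, Amy1 was higher by 1.37 (standard error 0.35), Prol1 by 0.64 (0.76) and Pip by 0.55 (0.62). The adipocyte genes summed to 210.1, 421 and 365 TPM (IgG1), 249.5, 185 and 302 TPM (anti-PD-1), 292, 1113 and 246.5 TPM (DOX/IgG1) and 1062, 408 and 342 TPM (DOX/anti-PD-1). DOX/IgG1 replicate 2, highest for Fos, was also highest here, and the adipocyte mean had r = 0.54 with Fos (permutation p = 0.0735, adjusted p = 0.462, rho = 0.54, permutation p = 0.0763), 0.40 without the 2 farthest tumors and 0.53 with group means subtracted. Salivary gland markers had r = 0.64 with Fos (permutation p = 0.0261, adjusted p = 0.297, rho = 0.67, permutation p = 0.0203), 0.60 and 0.37 in the same settings. Amy1 was the most abundant of them, and the 8 genes summed to 6.41, 18.7 and 8.19 TPM (IgG1), 25.4, 5.40 and 24.6 TPM (anti-PD-1), 64.4, 110.5 and 122 TPM (DOX/IgG1) and 19.7, 16.0 and 29.4 TPM (DOX/anti-PD-1). The part of these cells in the values of Fos was not tested. The reference genes, 10 with Actb the most abundant, were 9 of 10 higher with doxorubicin (median 0.18) and 5 of 10 with anti-PD-1 (-0.01). Their mean had r = -0.16 with Fos (permutation p = 0.617, rho = -0.17, permutation p = 0.604), -0.31 without the 2 farthest tumors and -0.60 with group means subtracted. Whether the low early genes of the anti-PD-1 tumors came from the treatment or from how tumors were collected cannot be told apart, since the labels give no collection order or time.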

How the data were processed

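RNA was measured in 12 whole tumors, 3 in each of 4 groups taken from the labels. The authors aligned reads with STAR to mm10 and quantified genes with RSEM (versions not given in the sources used here), and deposited log2(TPM + 1). Coordinates came from GENCODE vM21 (GRCm38). limma 3.58.1 (R 4.3.3) was fitted to log2(TPM + 1) with a mean-variance trend and Benjamini-Hochberg adjustment over all genes with 1 TPM in at least 3 tumors of the fit. Pairwise tests used the 6 tumors of both groups, and the others all 12. Single genes also had exact permutation tests, and correlations used 100000 permutations in Python 3.11.15 with numpy 2.4.6 and pandas 2.3.3. Figures were drawn with matplotlib 3.10.9. The limma step was tested on simulated data. The members and 20 other lists were chosen with earlier results of these data known. Of 239 symbols 238 were matched (Trac was not), and 1 with 2 identifiers was taken by the higher mean. Named genes are the members, the largest difference of a list, its most abundant gene and the genes most like the members' mean. Rhob, Zfp36, Vegfa and Adm were named after their values were seen. The alternatives were a pseudocount of 0.1, no filter, median-of-ratios scaling over 12114 genes, a replicate block, all 12 tumors in 1 fit and leaving out each tumor.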

Additional observations from a re-analysis of the deposited data

Results flagged for a closer look

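Batf, an AP-1 partner of lymphocytes, stood at 1.45, 1.10 and 1.14 TPM (IgG1), 0, 0.68 and 0 TPM (anti-PD-1), 0 TPM in all 3 DOX/IgG1 tumors and 4.07, 0.87 and 1.85 TPM (DOX/anti-PD-1). It stands out because the groups part in opposite directions. With anti-PD-1 it was lower without doxorubicin (-0.90) and higher with it (1.59), and with doxorubicin it was lower with IgG1 (-1.15) and higher with anti-PD-1 (1.34). Batf did not reach the filter in the pairwise comparisons of DOX/anti-PD-1, so 1.59 and 1.34 are differences of means that were not tested. In those with IgG1 it reached the filter only through the IgG1 tumors, where it was high, so -0.90 and -1.15 support nothing. The interaction of 2.49 (standard error 0.65, limma adjusted p = 0.993) was not called, and at these low levels the values rest on few transcripts.

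Bpifa2, a salivary gland gene and not an early response gene, had an interaction of -4.73 (standard error 0.66, limma adjusted p = 0.0909), but filter and test rest on the same values and the call supports nothing. It stood at 14.4, 21.3 and 53.7 TPM (DOX/IgG1) and at 0 TPM in the other 9 tumors, so it reached the filter only through that group, and the interaction is the value of that group with its sign turned. The call was lost with a pseudocount of 0.1, where 0 genes were called.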

How the results depend on the processing

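Every fold change of the 10 genes was computed again under each alternative, 920 values in all for 70 fold changes. The direction held in 868 values and turned in 52, which belong to 22 fold changes, and none of the 10 genes passed both limits in any of them. The anti-PD-1 difference over both arms never changed direction for any of the 10. The largest that turned was Atf3 in DOX/anti-PD-1 vs DOX/IgG1 (-0.83).

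Median-of-ratios scaling turned Ier2 in DOX/anti-PD-1 vs DOX/IgG1 (0.0168), Egr2 in DOX/IgG1 vs IgG1 (-0.0751, and -0.0529 with a pseudocount of 0.1), Dusp1 in DOX/anti-PD-1 vs anti-PD-1 (-0.0533) and Atf3 (-0.0220) and Ier3 (-0.0916) for doxorubicin over both antibodies.

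Leaving out each tumor in turn gave log2 fold changes on both sides of 0 as follows. For anti-PD-1 vs IgG1, Ier3 ran from -0.45 to 0.39. For DOX/anti-PD-1 vs DOX/IgG1, Atf3 ran from -1.66 to 0.0370 and Ier2 from -0.19 to 0.22. For DOX/IgG1 vs IgG1, Fosb ran from -0.0390 to 0.89, Egr2 from -0.57 to 0.74 and Dusp1 from -0.0737 to 0.63. For DOX/anti-PD-1 vs anti-PD-1, Junb ran from -0.0197 to 0.30, Egr1 from -0.23 to 0.36, Egr2 from -0.73 to 0.31, Atf3 from -0.87 to 0.83, Ier2 from -0.21 to 0.20, Ier3 from -0.0471 to 0.79 and Dusp1 from -0.10 to 0.16. For doxorubicin over both antibodies, Egr2 ran from -0.31 to 0.27, Atf3 from -0.26 to 0.50 and Ier3 from -0.21 to 0.16. For the interaction, Fos ran from -0.62 to 0.47, Jun from -0.18 to 0.26, Junb from -0.35 to 0.0172, Egr2 from -0.85 to 0.47, Atf3 from -1.10 to 0.59 and Dusp1 from -0.56 to 0.14.

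Among all genes, limma called 0 for anti-PD-1 vs IgG1 and 0 to 4 with a tumor left out. For DOX/anti-PD-1 vs DOX/IgG1 it called 0, with 3 after scaling, 2 in a fit of all 12 tumors and 0 to 4 with a tumor left out. For DOX/IgG1 vs IgG1 it called 5, with 2 under the replicate block, and 0 to 122 with a tumor left out, the most without DOX/IgG1 replicate 1. For DOX/anti-PD-1 vs anti-PD-1 it called 0, and 0 to 4 with a tumor left out. For doxorubicin over both antibodies it called 3, with 14 after scaling, 1 under the replicate block and 0 to 212 with a tumor left out, again the most without DOX/IgG1 replicate 1. For the interaction it called 1, with 0 at a pseudocount of 0.1, 3 without the filter, 0 after scaling, 0 under the replicate block and 0 to 1 with a tumor left out. Pairs of the 10 genes past the adjusted limit were 2, and 2 to 6 with a tumor left out. After subtracting group means there was 1, by p-values that make no allowance for those means.

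The replicate block treats tumors of the same replicate number as a set. Deviations from group means of tumors with the same number had r between -0.10 and 0.13 over 14735 genes, and the labels do not say that numbers are shared.

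With 3 tumors in each group, the exact test of a pair of groups cannot go below 0.1. The values carry no counts, cells were not separated, and collection times and order are not in the labels. Doxorubicin cannot be told apart from starting size, first antibody dose and schedule. The 10 genes and the lists were chosen with earlier results of these data known.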
